A study of Homo sapiens with 8 samples.

Results

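The short arm of chromosome 12 (12p) was described here through the binding sites of SOX2, OCT4 and NANOG that lie on it. The members were the peaks on chromosome 12 that ended below 34.8 Mb of hg19 in each of 6 peak lists. They numbered 5132 of 201619 peaks, 1158 of them in H9 and 3974 in NT2/D1. They were compared with the 8463 peaks that started above 38.2 Mb on the long arm (12q), 2880 in H9 and 5583 in NT2/D1. Each list came from chromatin immunoprecipitation and sequencing (ChIP-seq) of 1 factor in 1 line, with 1 library for each factor and line. H9 cells are human embryonic stem cells. NT2/D1 cells were derived from an embryonal carcinoma and are labelled as a human germ cell tumour. No treatment, passage or culture condition was named for either line, and each group was 1 cell line. An IgG sample of each line was also labelled, and neither IgG sample was analysed here by itself.

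Human germ cell tumours often carry extra copies of 12p, commonly as an isochromosome made of 2 short arms. The arm holds a cluster of genes active in pluripotent cells, NANOG among them. SOX2 and OCT4 can bind side by side at a composite DNA element, and with NANOG they occupy many of the same enhancers in pluripotent cells. Copy number was not analysed here, and the peak lists do not measure it, so the label of a gained arm was not checked in these cells.

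The NANOG promoter shows the element that SOX2 and OCT4 share, and 3 more promoters show starts on 12p that were bound in other ways. They are the 250 bases before each gene's start, 5′ to 3′ on the gene's strand, from RefSeq and the build GRCh38.p14, which is later than the hg19 build of the peak lists. Capitals mark matches on either strand to ACAATG or ACAAAG (SOX motifs), ATGCAAAT (the octamer) or CATTGTNATGCA (a SOX-OCT composite). The composite holds ACAATG in reverse, so a composite match is also a SOX match.
NANOG: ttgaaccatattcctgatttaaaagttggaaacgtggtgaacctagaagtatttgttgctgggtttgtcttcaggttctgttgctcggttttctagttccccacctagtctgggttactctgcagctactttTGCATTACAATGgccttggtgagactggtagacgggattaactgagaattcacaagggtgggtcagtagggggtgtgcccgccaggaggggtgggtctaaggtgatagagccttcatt
GDF3: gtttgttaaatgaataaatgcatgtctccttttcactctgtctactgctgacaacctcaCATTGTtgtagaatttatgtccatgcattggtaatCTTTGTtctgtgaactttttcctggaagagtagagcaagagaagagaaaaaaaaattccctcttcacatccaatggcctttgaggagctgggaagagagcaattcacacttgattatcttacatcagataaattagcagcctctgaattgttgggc
ERGIC2: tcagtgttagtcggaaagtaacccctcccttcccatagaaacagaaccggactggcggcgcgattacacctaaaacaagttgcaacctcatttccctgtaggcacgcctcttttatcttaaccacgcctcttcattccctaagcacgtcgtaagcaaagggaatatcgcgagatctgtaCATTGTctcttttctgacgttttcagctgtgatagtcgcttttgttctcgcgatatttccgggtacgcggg
FERRY3: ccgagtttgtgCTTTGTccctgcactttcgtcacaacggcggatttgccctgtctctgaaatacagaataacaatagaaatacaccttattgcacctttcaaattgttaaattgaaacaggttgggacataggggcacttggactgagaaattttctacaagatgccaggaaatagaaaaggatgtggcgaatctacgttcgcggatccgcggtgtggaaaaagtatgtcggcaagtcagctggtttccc
The NANOG sequence lies at chr12:7789152-7789401 on the plus strand, GDF3 at chr12:7695776-7696025, ERGIC2 at chr12:29381173-29381422 and FERRY3 at chr12:4538470-4538719, all 3 on the minus strand. In NANOG the composite spans 118 to 107 bases before the start. It was found in 1 of 280 promoters of 12p genes (0.357%), that of NANOG, and in 11 of 35116 promoters in the whole table (0.0313%). GDF3 held 1 match to each SOX motif, and ERGIC2 and FERRY3 held 1 SOX match each. ACAATG was in 11.4% of 12p promoters and 10.8% of all promoters, ACAAAG in 16.8% and 16.1%, and the octamer in 3.93% and 1.77%. A match is a run of letters and was not taken as a binding site.

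The libraries of the lines differed in depth and in peak calling. Unique tags ranged from 54046559 to 77649240 in H9 and from 10218752 to 23160564 in NT2/D1. The band width of the peak caller was 2000 in H9 and 200 in NT2/D1, per the file headers. The NT2/D1 SOX2 and NANOG lists were called against 1 shared IgG library of 2937004 unique tags, NT2/D1 OCT4 against another of 6479071, and all H9 lists against 1 of 58012070. With 1 library for each factor and line no test between lines was possible for a factor, and none was made across factors. Intervals of shares are 95% Wilson intervals, and those of ratios are 95% normal intervals on the log of the ratio. Both cover counting error only.

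A larger part of the chromosome 12 peaks lay on 12p in NT2/D1 than in H9, for each factor. In H9, 12p held 294 SOX2, 377 OCT4 and 487 NANOG peaks, which were 31.0% (28.2 to 34.1), 26.9% (24.7 to 29.3) and 28.8% (26.7 to 31.0) of the peaks on the chromosome. In NT2/D1 it held 1624, 1026 and 1324 peaks, which were 46.5% (44.9 to 48.2), 33.1% (31.5 to 34.8) and 44.6% (42.8 to 46.4). The intervals of the lines did not overlap for any factor. The order depended on how peaks were ranked. In the upper 50% of each list by fold, a setting chosen after seeing the data, the shares in H9 and NT2/D1 were 27.9% and 30.9% for SOX2, 29.2% and 31.8% for NANOG, and 26.6% and 19.5% for OCT4, where H9 was the higher line.

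**Figure D1:**
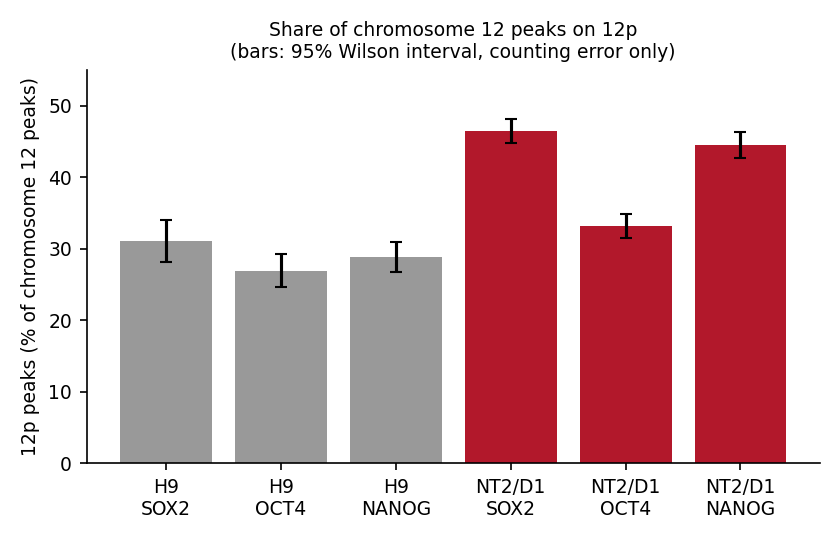
Share of the chromosome 12 peaks that lay on 12p (percent, vertical axis) in each of the 6 peak lists (horizontal axis). Error bars are 95% Wilson intervals. The H9 lists stood between 26.9% and 31.0% and the NT2/D1 lists between 33.1% and 46.5%.

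Of all peaks on chromosomes 1 to 22 and X, 12p held 1.52% (SOX2), 1.28% (OCT4) and 1.44% (NANOG) in H9, beside 4.23%, 2.23% and 3.87% in NT2/D1. The NT2/D1 share was thus 2.78 times the H9 share for SOX2 (interval 2.46 to 3.14), 1.74 times for OCT4 and 2.69 times for NANOG. When 12p, 12q and the other chromosomes were ranked by this ratio, 12p came first of 24 for each factor. The next was chromosome 21 for SOX2 (2.52, interval 2.17 to 2.92) and NANOG (2.31, 2.06 to 2.60) and chromosome 1 for OCT4 (1.39). The intervals of 12p and chromosome 21 overlapped for SOX2 and NANOG, so first place was not clear of chromosome 21 for these factors. Those of 12p and chromosome 1 did not overlap for OCT4. Only chromosome 12 was split by arm, so 12p was ranked against whole chromosomes, and other single arms were not ranked. The ratio of 12q was 1.44, 1.30 and 1.35, and its rank was 7, 5 and 8. The lowest ratios were 0.276 for SOX2 and 0.626 for OCT4, both on chromosome 6, and 0.293 for NANOG on chromosome 18. In the upper 50% by fold the 12p ratio was 2.11 for SOX2, 1.69 for NANOG and 0.922 for OCT4, so the OCT4 ratio changed sides.

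**Figure D2:**
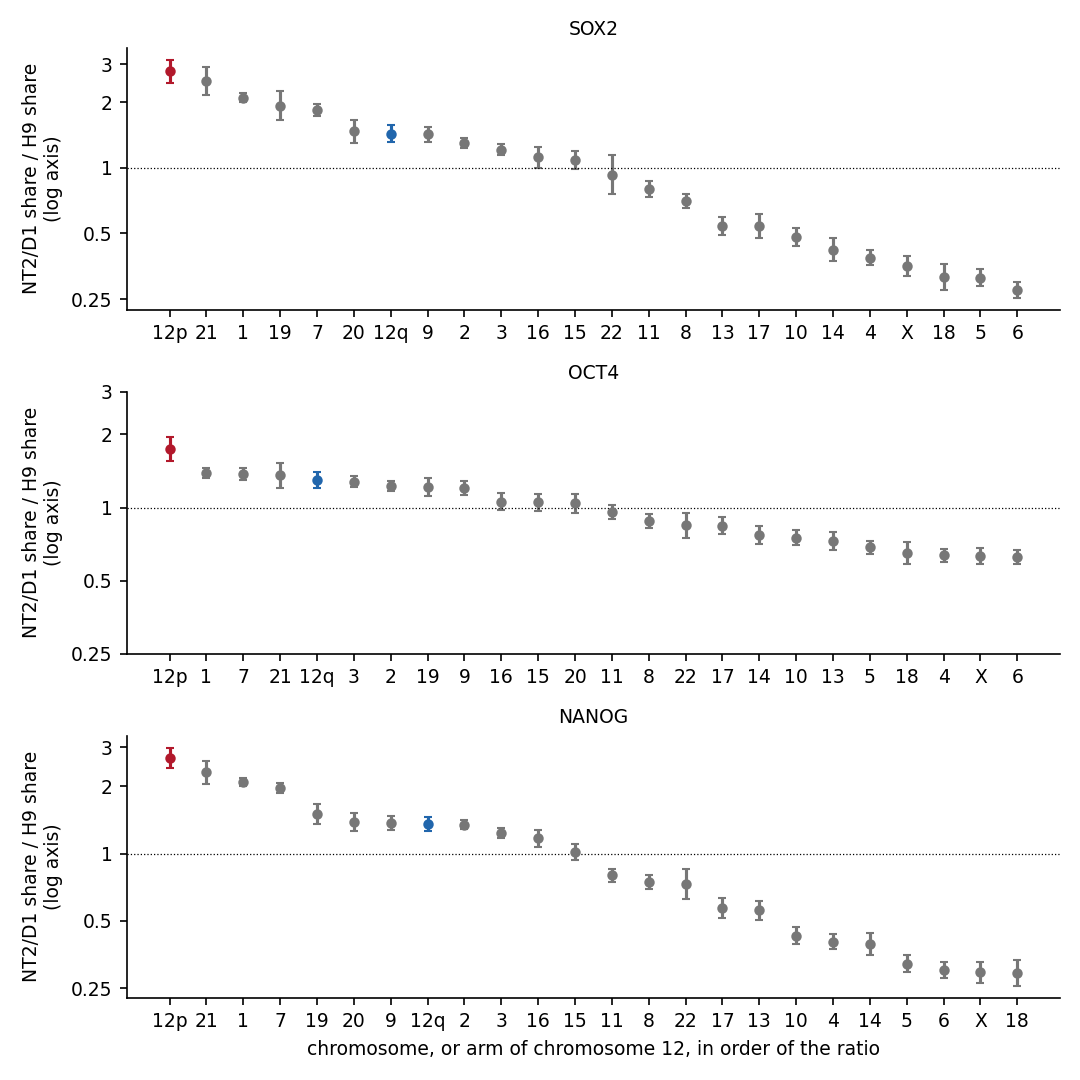
Ratio of the share of peaks in NT2/D1 to the share in H9 (vertical axis, log scale) for 12p (red), 12q (blue) and every other chromosome (grey), in order of the ratio, with 95% intervals from counting error. 12p stood first for each factor, with an interval that overlapped that of chromosome 21 for SOX2 and NANOG. The ratio fell to 0.276 on chromosome 6 for SOX2.

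The 12p peaks of NT2/D1 were spread over the whole arm. The arm was cut into 17 windows of 2 Mb and 12q into 46. The mean count per 12p window was 1.24, 1.02 and 1.11 times that of 12q in H9 for SOX2, OCT4 and NANOG, and 2.41, 1.38 and 2.22 times in NT2/D1. NT2/D1 SOX2 windows held 58 to 147 peaks on 12p (median 92) and 18 to 69 on 12q (median 38), and 15 of the 17 held more than the fullest 12q window. For NT2/D1 NANOG the range was 46 to 144 on 12p (median 67) and 9 to 78 on 12q (median 31.5), and 5 of the 17 passed the fullest 12q window. NT2/D1 OCT4 ranged from 34 to 80 on 12p and from 10 to 71 on 12q, and 4 windows passed. In H9 the ranges overlapped, with 2 SOX2 windows and 0 OCT4 or NANOG windows above all of 12q.

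The share of peaks was higher in NT2/D1 than in H9 in 17 of 17 windows of 12p for SOX2, 16 of 17 for OCT4 and 17 of 17 for NANOG. On 12q this held in 31, 34 and 28 of 46 windows. The ratio varied along the arm. For SOX2 and NANOG it was highest between 2 and 4 Mb, at 7.48 and 5.70, and lowest between 8 and 10 Mb, at 1.41 and 1.58. The lowest window had 25 SOX2 peaks in H9 and 70 in NT2/D1, and 32 and 51 NANOG peaks. The highest had 8 and 119 SOX2 peaks and 25 and 144 NANOG peaks. For OCT4 the lowest ratio was 0.948, between 14 and 16 Mb. On 12q the highest SOX2 ratio was 8.22, above that of any 12p window. It lay between 108 and 110 Mb, with 3 peaks in H9 and 49 in NT2/D1. The highest NANOG ratio on 12q was 4.17.

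**Figure D3:**
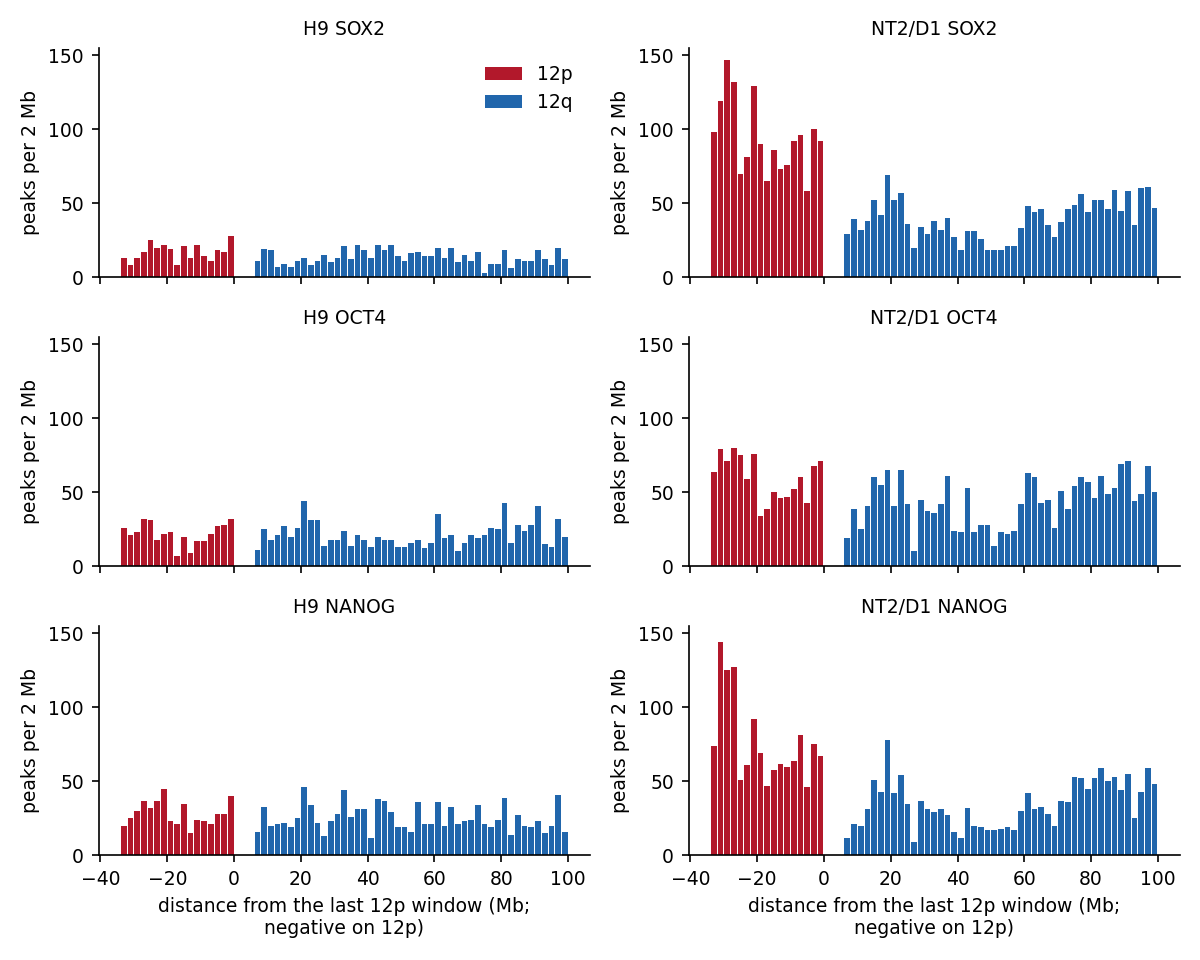
Peaks per 2 Mb window (vertical axis) against distance from the end of the last 12p window (Mb, horizontal axis), with 12p in red and 12q in blue, for each factor (rows) and line (columns). In NT2/D1 SOX2 the 12p windows held 58 to 147 peaks and the 12q windows 18 to 69.

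Peaks on 12p held more tags and were longer than those on 12q in NT2/D1, but their fold was lower. The tag count is the number of ChIP reads in a peak, and the fold is the authors' ratio over background. In NT2/D1 the median tag count was 20 on 12p and 11 on 12q for SOX2, 11 and 8 for OCT4, and 15 and 9 for NANOG. The median fold was 5.66 and 6.25 for SOX2, 6.97 and 8.68 for OCT4, and 6.12 and 7.04 for NANOG. The median length was 557 and 367 bp for SOX2, 360.5 and 278 bp for OCT4, and 424.5 and 313 bp for NANOG. Per kb of peak, the 12p median was 1.15, 1.15 and 1.16 times that of 12q. In H9 the ratio of 12p to 12q medians lay between 1.04 and 1.09 for tags, 0.929 and 1 for fold, and 1.03 and 1.05 for length.

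The ranking of a peak within its list therefore depended on the measure. In NT2/D1, 14.7% of SOX2, 11.0% of OCT4 and 16.2% of NANOG 12p peaks were in the upper 10% of their list by score, and 5.79%, 3.90% and 6.19% by fold. On 12q the values were 8.36%, 9.47% and 8.68% by score and 7.56%, 7.92% and 7.77% by fold. Of the widest 1% of peaks, 27.5% lay on 12p for NT2/D1 SOX2, 12.4% for OCT4 and 26.0% for NANOG, and 0.515%, 1.35% and 2.07% in H9.

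**Figure D4:**
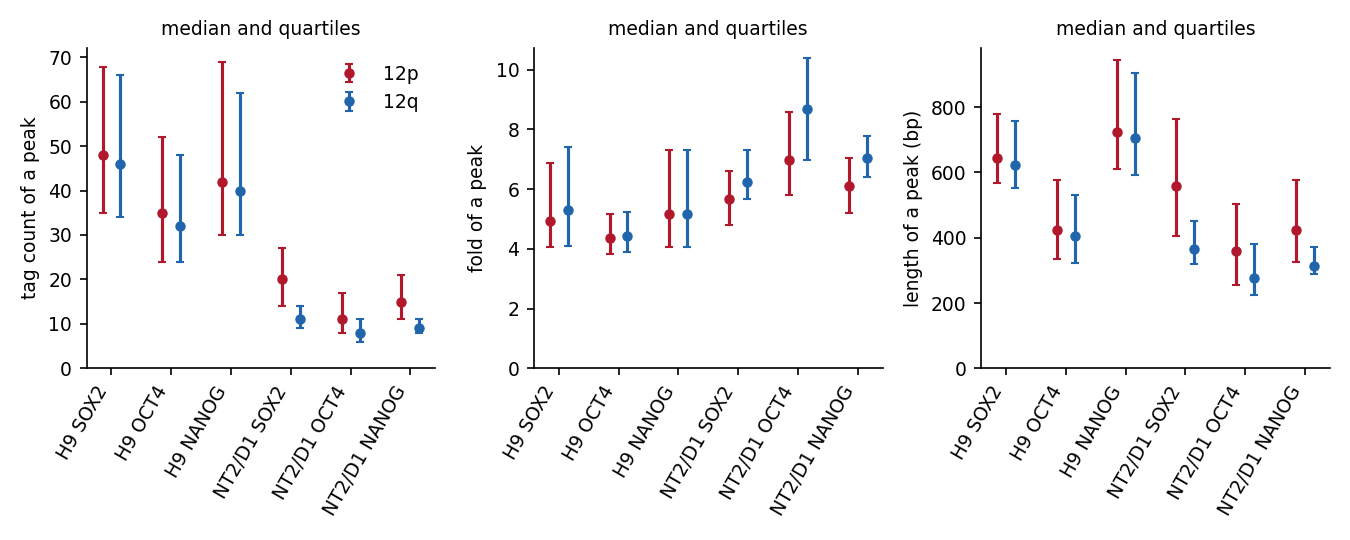
Median tag count, fold and length in bp (points, vertical axes) of the peaks on 12p (red) and 12q (blue) in each list, with lines from the lower to the upper quartile. In NT2/D1 SOX2 the medians on 12p and 12q were 20 and 11 tags and 5.66 and 6.25 in fold.

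Peaks of H9 on 12p met an NT2/D1 peak of the same factor more often than the whole list, and NT2/D1 peaks on 12p met an H9 peak less often than the whole list. An overlap of 1 bp counted. Of the H9 12p peaks, 68 of 294 SOX2 peaks (23.1%, 18.7 to 28.3) were overlapped, against 16.2% over the whole list and 18.7% on 12q. For OCT4 it was 139 of 377 (36.9%, 32.2 to 41.8), against 26.1% and 28.9%. For NANOG it was 92 of 487 (18.9%, 15.7 to 22.6), against 9.84% and 10.7%. The interval of 12q was 15.9 to 21.9% for SOX2, which overlapped that of 12p, 26.2 to 31.8% for OCT4 and 9.09 to 12.6% for NANOG. Of the NT2/D1 12p peaks, 71 of 1624 SOX2 peaks (4.37%, 3.48 to 5.48) were overlapped by an H9 peak, against 8.36% over the whole list. For OCT4 it was 141 of 1026 (13.7%, 11.8 to 16.0), against 17.1%, and for NANOG 96 of 1324 (7.25%, 5.97 to 8.77), against 10.1%. On 12q the NT2/D1 shares were 6.70% (5.65 to 7.92), 14.6% (13.2 to 16.2) and 7.95% (6.74 to 9.36) for SOX2, OCT4 and NANOG, so the intervals of the arms overlapped for OCT4 and NANOG and not for SOX2. The number of NT2/D1 peaks on the arm, which sets how often an H9 peak can meet one, moved with both directions, and its part was not tested.

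Overlapped 12p peaks had more tags and a higher fold than the other 12p peaks of their list, as on 12q. In H9 SOX2 the median was 74.5 tags and a fold of 7.52 for overlapped peaks and 43.5 tags and 4.66 for the rest. In NT2/D1 OCT4 it was 22 tags and 9.06 against 10 tags and 6.97. The same order held for tags and fold in each of the 6 lists, on 12p and on 12q, so it was not particular to 12p. On 12q the medians were 78.5 and 42 tags for H9 SOX2 and 15 and 7 tags for NT2/D1 OCT4.

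Within NT2/D1, SOX2 and NANOG peaks met each other more often on 12p than on 12q, while the share of SOX2 and NANOG peaks that met an OCT4 peak differed little. Of the SOX2 peaks on 12p, 24.3% were overlapped by a NANOG peak, against 11.7% on 12q and 14.3% on the other chromosomes. Of the NANOG peaks, 30.4% were overlapped by a SOX2 peak, against 13.2% and 16.1%. These lists share their IgG library. For OCT4, called against another IgG library, 15.5% of 12p peaks were overlapped by a SOX2 peak and 14.5% by a NANOG peak, against 8.31% and 7.44% on 12q and 9.18% and 7.73% on the other chromosomes. An OCT4 peak overlapped 9.98% of SOX2 peaks on 12p, 9.11% on 12q and 11.3% on the other chromosomes, so that 12p was below the rest of the genome. For NANOG peaks it was 11.7%, 9.29% and 10.7%. In H9 the pairs differed less between arms, with 65.0% of SOX2 peaks overlapped by a NANOG peak on 12p and 65.8% on 12q, and 38.2% and 34.3% of OCT4 peaks by a SOX2 peak.

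Peaks of all lists were merged into 3774 regions on 12p. Of these, 117 held all 3 factors in H9, 80 held all 3 in NT2/D1, and 29 held all 3 in both, a number that was 17 without the widest 1% of each list. Of the 117 H9 regions, 86 (73.5%, 64.9 to 80.7) held at least 1 NT2/D1 peak, against 59.4% over chromosomes 1 to 22 and X and 63.0% on 12q. Of the 80 NT2/D1 regions, 28 (35.0%, 25.5 to 45.9) held no H9 peak, against 17.0% overall and 5 of 68 (7.35%, 3.18 to 16.1) on 12q. 12p held 4.09% of the 1957 NT2/D1 regions with all 3 factors and 1.43% of the 8187 H9 regions. Of those without a peak of the other line, it held 8.43% of 332 in NT2/D1 and 0.933% of 3322 in H9. The 28 regions fell to 14 with summits within 200 bp or lists of equal length and to 16 in the upper 50% by score.

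The region with the highest rank in both lines lay 40.3 kb from the start of ETV6, a transcriptional repressor of the ETS family, at 11761641 to 11762934 of hg19. Its lowest percentile by score in any list was 99.8. The H9 peaks there held 355 (SOX2), 278 (OCT4) and 326 (NANOG) tags, and the NT2/D1 peaks 120, 141 and 89. It was the first peak of 12p by score in 5 of the 6 lists and the second in NT2/D1 NANOG.

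The next region lay 1.30 kb from the start of PHC1, a Polycomb group protein, at 9063458 to 9066011. The SOX2, OCT4 and NANOG folds there were 20.9, 10.4 and 31.0 in H9, and in NT2/D1 they were 14.2, 16.4 and 11.0. Then came regions nearest to PIK3C2G, a lipid kinase, to FAR2, a fatty acyl-CoA reductase, and to RESF1, a partner of histone methylation enzymes that silence retroelements. They lay 192.8, 464.0 and 53.9 kb from the starts of these genes, which are only the nearest listed. The first 10 regions also included sites nearest to PARP11, ATF7IP and FGD4, and 1 by GDF3, a growth factor of the TGF-beta family. Without the widest 1% of each list, the regions at ETV6, PIK3C2G, FAR2 and RESF1 kept peaks of all 6 lists. Those at PHC1, ATF7IP and GDF3 kept 4, that at FGD4 5, and the 2 nearest to PARP11 kept 5 and 2. Of the 29 regions, 17 lay more than 50 kb from a gene start and 2 within 1 kb.

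Regions with all 3 factors in H9 and no NT2/D1 peak numbered 31, and 0 lay within 1 kb of a start, with an upper limit of 11.0% by the Wilson interval, against 3.34% of the 3322 such regions over chromosomes 1 to 22 and X. The highest of them lay 4.98 kb from FAR2, with 113, 72 and 164 tags for SOX2, OCT4 and NANOG. Others were nearest to SSPN, which encodes a muscle membrane protein, BICD1, which encodes an adaptor of the dynein motor, and PKP2, a desmosome gene.

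Of the 28 regions with all 3 factors in NT2/D1 and no H9 peak, 6 (21.4%, 10.2 to 39.5) lay within 1 kb of a start, against 53 of 332 (16.0%) over chromosomes 1 to 22 and X, which was within that interval. The highest lay 0.793 kb from FBXL14, a ubiquitin ligase subunit, with 47, 49 and 35 tags for SOX2, OCT4 and NANOG. The region at FERRY3 overlapped the gene's start, with 55, 39 and 16 tags. That at LMNTD1 lay 26.9 kb from the start, with 38, 34 and 38 tags. When the widest 1% of each list was left out, the LMNTD1 region kept peaks of 3 lists, while those at FBXL14 and FERRY3 had a peak of 1 list. Near IFFO1, which encodes an intermediate filament family protein, 2 such regions lay 0.104 and 1.16 kb from the start.

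Other peaks among the 3 highest of a list lay near AKAP3, SOX5, SYT10 and BICD1. AKAP3, a sperm scaffold protein gene, was nearest to the first NT2/D1 NANOG peak of the arm (88 tags, fold 36.6) and the second NT2/D1 SOX2 peak (69 tags, fold 35.2). At a like distance from its neighbour NDUFA9, a subunit gene of respiratory complex I, H9 had a SOX2 peak of 70 tags and a NANOG peak of 115 tags. The NT2/D1 SOX2 peak of rank 3 lay 172.9 kb from SOX5, a SOX family gene. In H9 a peak 210.1 kb from SYT10, a synaptotagmin gene, held rank 3 for SOX2 with 147 tags. The H9 OCT4 peak at this site held rank 2 with 129 tags. The peak second for H9 SOX2 lay 12.9 kb from BICD1. This peak and that near SOX5 lay in regions with all 3 factors in both lines.

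Genes were counted where the authors listed them as the nearest gene on either side of a 12p peak. There were 298 such genes, so genes far from all peaks are not in this count. A gene was counted for a list where its start was within 50 kb of a peak for which it was listed. This held for 38.9% (SOX2), 52.3% (OCT4) and 60.7% (NANOG) of them in H9 and for 89.3%, 89.6% and 85.6% in NT2/D1. A 3-factor region lay within reach of 19.8% of them in H9 and 19.5% in NT2/D1. The 298 genes, and with them the members of the lists described next, entered by a peak of any list, and 3974 of the 5132 peaks were of NT2/D1. The higher NT2/D1 shares are thus partly set by this choice of genes, and nothing is read from them. The genes near a site of all 3 factors numbered 59 in H9 and 58 in NT2/D1.

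The stem cell gene cluster had peaks near all of its genes in H9, where no more could be counted. Its 7 genes had a peak of each factor in H9 (7 of 7 in each list), and in NT2/D1 5 had a SOX2 peak, 7 an OCT4 peak and 6 a NANOG peak. A 3-factor region lay near 6 of them in H9 and 3 in NT2/D1. Within 5 kb, 3 genes had a peak in each H9 list, and in NT2/D1 3 had a SOX2 peak, 6 an OCT4 peak and 2 a NANOG peak, so the order of the lines depended on the factor and the distance. The genes near a 3-factor region in NT2/D1 were GDF3, PHC1 and DPPA3, a maternal factor of the early embryo. DPPA3 was reached by the region at GDF3, whose NT2/D1 SOX2 and NANOG peaks lay 16.3 and 16.0 kb from the DPPA3 start.

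NANOG, the homeobox factor that heads this cluster, had peaks at its start in both lines. The start was overlapped in H9 by a SOX2 peak of 89 tags (fold 12.9, score percentile 90.1), an OCT4 peak of 71 tags (fold 7.53, percentile 90.8) and a NANOG peak of 44 tags (fold 3.59, percentile 0.313). In NT2/D1 an OCT4 peak of 23 tags (fold 13.2, percentile 94.3) overlapped it. The NT2/D1 SOX2 and NANOG lists held no peak within 50 kb for which NANOG was listed. The NANOG promoter printed above is thus the 12p promoter with the composite, and its start was overlapped by peaks of 4 of the 6 lists. If the NT2/D1 OCT4 and NANOG libraries are exchanged, as their source names have it, the single NT2/D1 peak is a NANOG peak.

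GDF3 had peaks of all 6 lists within 0.701 kb of its start. By fold, the strongest SOX2, OCT4 and NANOG peaks near it stood at 9.06, 6.79 and 10.5 in H9, and in NT2/D1 at 6.95, 8.29 and 5.76. SLC2A3, a glucose transporter gene, had 4, 4 and 3 peaks in H9, beside 8, 8 and 4 in NT2/D1. No fold was compared between lists.

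Lists of other genes on the arm had more members with a peak in NT2/D1, as did the 298 genes. This order is partly set by how the genes entered, and nothing is read from it. Over the whole arm there were 294 SOX2, 377 OCT4 and 487 NANOG peaks in H9, beside 1624, 1026 and 1324 in NT2/D1. Counts of single genes, here and below, were not set apart from that difference. For cell cycle and growth genes, 2, 6 and 6 of 11 had a SOX2, OCT4 and NANOG peak in H9, beside 11, 10 and 10 in NT2/D1, with a 3-factor region near 2 and 5. CCND2, a cyclin of the G1 phase, had 0, 4 and 2 peaks in H9, beside 4, 7 and 2 in NT2/D1. KDM5A, a histone demethylase gene, had 0 peaks in each H9 list and 3 in each NT2/D1 list. RAD51AP1, a DNA repair gene, had 0 in each H9 list and 16, 4 and 9 in NT2/D1. KDM5A and RAD51AP1 were thus within reach through NT2/D1 peaks only, so nothing is read from their difference between the lines. FOXM1, a mitotic transcription factor, had 0, 0 and 2 in H9, beside 3, 3 and 5 in NT2/D1. CDKN1B, of the same list, had 1, 2 and 3 in H9, beside 2, 3 and 2 in NT2/D1.

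For genes named as germ cell tumour candidates on 12p, 7, 11 and 8 of 15 had a SOX2, OCT4 and NANOG peak in H9, beside 13, 15 and 14 in NT2/D1, while 4 were near a 3-factor region in each line. SOX5 had 4, 4 and 6 peaks in H9, beside 11, 10 and 11 in NT2/D1. Signalling and transcription genes had 8, 19 and 20 of 24 in H9, beside 22, 23 and 24 in NT2/D1, with 5 and 9 near a 3-factor region. CD9, a tetraspanin of the pluripotent cell surface, had 1, 3 and 3 peaks in H9, beside 9, 4 and 9 in NT2/D1. Neuronal and channel genes had 3, 9 and 9 of 15 in H9 and 15 of 15 in each NT2/D1 list, with 1 and 4 near a 3-factor region. GRIN2B, a glutamate receptor subunit gene, had 1, 2 and 2 peaks in H9, beside 9, 5 and 7 in NT2/D1.

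Genes of other tissues were reached as well. Taste receptor and salivary protein genes had a SOX2, OCT4 and NANOG peak in 3, 8 and 8 of 19 in H9, beside 17, 18 and 10 in NT2/D1, and 2 and 0 were near a 3-factor region. Genes of this cluster lie close together, so 1 peak can count for a pair of neighbours. Liver transporter and plasma protein genes had 6, 4 and 7 of 10 in H9, beside 10, 8 and 10 in NT2/D1. Metabolic housekeeping genes had 5, 2 and 5 of 12 in H9, beside 11, 9 and 11 in NT2/D1, with 0 and 1 near a 3-factor region.

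In the immune lectin and receptor cluster the counts of the lines were near each other for OCT4 and NANOG and apart for SOX2 and the 3-factor regions. It had a SOX2, OCT4 and NANOG peak in 13, 19 and 18 of 25 in H9, beside 21, 20 and 18 in NT2/D1, and 8 and 2 of its genes were near a 3-factor region. CD69, a lectin of activated lymphocytes, had 2 peaks in each H9 list and 1, 3 and 3 in NT2/D1. Some of these genes, CD69 among them, lie between 8 and 10 Mb, the window of the lowest SOX2 and NANOG ratios on 12p. Others, such as CD4 and KLRK1, lie outside it, and a link between the window and these counts was not tested.

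**Figure D5:**
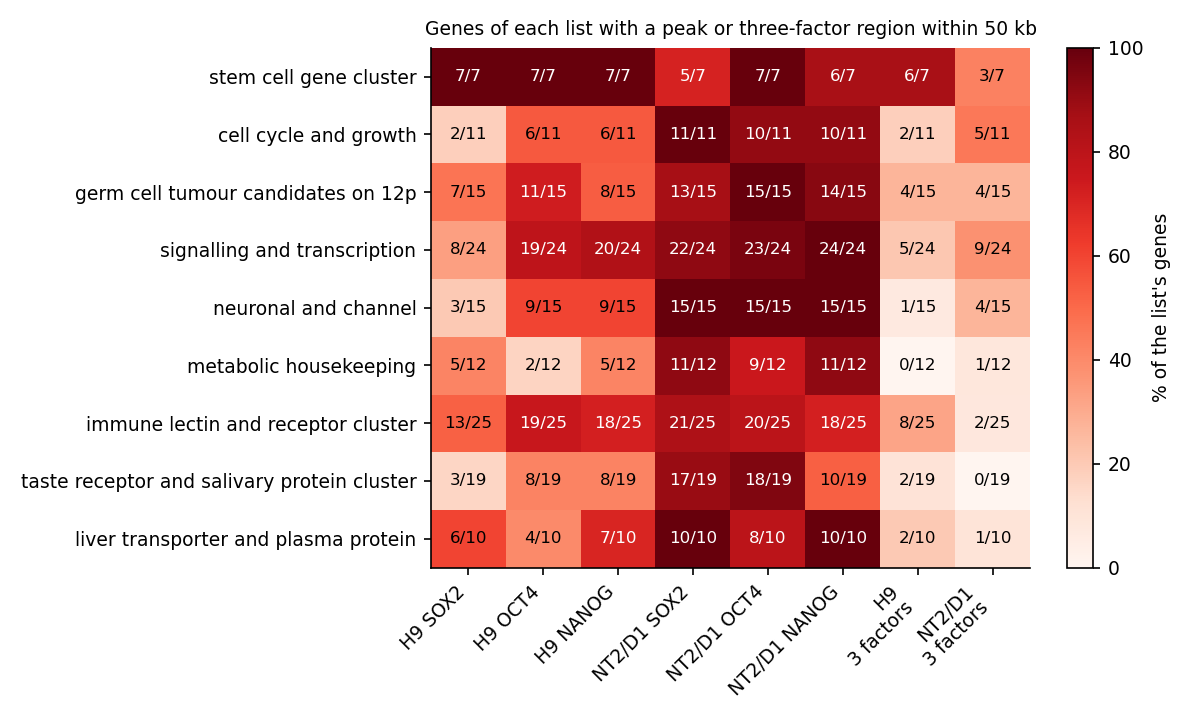
Number of genes of each list (rows) with a peak within 50 kb in each of the 6 peak lists, or with a region of all 3 factors in H9 or NT2/D1 (columns), over the number of genes in the list, with colour for the percent. The stem cell gene cluster had 7 of 7 in each H9 list, and the number near a 3-factor region was 6 in H9 and 3 in NT2/D1.

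The share of 12p peaks within 1 kb of a gene start was near that of the whole list. Peaks within 1 kb of a start made up 5.44% (SOX2), 9.28% (OCT4) and 8.62% (NANOG) of 12p peaks in H9, beside 4.39%, 10.5% and 7.66% of the whole lists. In NT2/D1 it was 3.69%, 10.9% and 4.08%, beside 3.44%, 12% and 4.44%. Each whole-list value lay within the interval of its 12p share.

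Starts of 77 of the 298 genes were overlapped by a peak of some list, 52 of them by an NT2/D1 OCT4 peak and 13 by an H9 OCT4 peak. Of the NT2/D1 OCT4 peaks, 5.07% overlapped a start on 12p and 4.33% in the whole list, and of the H9 OCT4 peaks 3.45% and 2.27%. For NT2/D1 SOX2 it was 0.985% and 0.516%, and for NT2/D1 NANOG 1.21% and 0.661%, from 16 peaks on 12p in each. For H9 SOX2 it was 2.04% and 1.49%, and for H9 NANOG 3.08% and 2.68%. The H9 SOX2, H9 NANOG and NT2/D1 OCT4 shares were higher on 12q than on 12p, at 2.30%, 3.74% and 5.70%. Those of H9 OCT4, NT2/D1 SOX2 and NT2/D1 NANOG were lower on 12q, at 2.83%, 0.214% and 0.729%. No interval is given for these shares, and no order of the arms is read from them. The start of ERGIC2, which encodes a protein of the secretory pathway, was overlapped by OCT4 peaks of both lines, with 40 tags in H9 and 24 in NT2/D1. H4C16, a histone H4 gene, was overlapped by 153, 124 and 103 tags (SOX2, OCT4, NANOG) in H9 and by an OCT4 peak of 22 tags in NT2/D1. The start of GALNT8, a glycosyltransferase gene, was overlapped by peaks of 5 lists. An NT2/D1 OCT4 peak of 45 tags (fold 9.07) lay in the same merged region and did not overlap the start. ATN1, a transcriptional corepressor gene, had peaks of all 3 NT2/D1 factors, with 124, 57 and 42 tags for SOX2, OCT4 and NANOG at the start itself. H9 peaks lay beside the ATN1 start and did not overlap it, the nearest a NANOG peak at 148 bp and an OCT4 peak at 1064 bp. RAD52, a DNA repair gene, had OCT4 peaks of both lines and an NT2/D1 SOX2 peak of 29 tags. SCNN1A, a sodium channel subunit gene, had H9 OCT4 and NANOG peaks and an NT2/D1 OCT4 peak of 61 tags at percentile 5.90.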

How the data were processed

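Peaks were called by the authors with MACS for each library against an IgG library, without pooling, at a p-value cutoff of 0.001, per the file headers. Positions are on hg19, per the submitters' processing notes, and the aligner is not given in the sources used here. Each deposited tag count is the number of ChIP tags in a peak, not normalized. The deposited fold is a ratio over background by the authors. The score they deposited was read as −log10 of p times 10, since its column name had been overwritten and its lowest value was 30. The deposited FDR is in percent, and the authors added the nearest gene on each side. These values were ranked and compared within a list only, and values of both lines are printed side by side without a comparison.

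Peaks were assigned to arms by the limits given, and to groups by title; for NT2/D1 OCT4 and NANOG the source names are exchanged. Overlap was 1 bp. Of 390 RefSeq accessions beside 12p peaks, 364 (93.3%) matched the RefSeq table. Promoters came from GRCh38.p14, whose coordinates are not those of hg19. The named genes are members of the 9 gene lists; the genes nearest to the 10 highest regions of both lines and the 6 highest of each line alone, by lowest score percentile; those of the 3 highest peaks of each list; and up to 10 starts overlapped by all 3 factors of a line or by 1 factor in both. Members of the gene lists with values were picked from those lists after values were seen. One gene was taken out of 2 of the lists after values were seen and is not reported here. Members and lists were chosen with earlier results of these data known. The overlap code was tested on simulated peaks. Python 3.11.15, pandas 2.3.3 and scipy 1.17.1 were used. Alternatives were the upper 50% by score or fold, lists of equal length, a stricter score, and an FDR limit. Others were lists without wide peaks or arm ends, exchanged libraries, and other limits of overlap and distance.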

Additional observations from a re-analysis of the deposited data

How the results depend on the processing

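Of 254 recomputed values, 144 stayed within the 95% interval of the reported value or, for counts, within 1.5 times it. For medians this was a binomial interval on ranks. The NT2/D1 share of chromosome 12 peaks on 12p was above the H9 share in 26 of 27 pairs of factor and setting, and the exception was OCT4 in the upper 50% by fold, a setting chosen after seeing the data. The overlapped share of H9 peaks was higher on 12p than on 12q and on the other chromosomes in 18 of 18 pairs, and that of NT2/D1 peaks was lower in 16 of 18. The counts of pairs include the main setting, and the pairs of SOX2 with exchanged libraries repeat its main values. The 254 values leave out the main setting but include values that the exchange left unchanged. The cause of the changes given here was not tested, apart from counts that fall because fewer peaks or shorter distances enter.

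The 12p share of NT2/D1 chromosome 12 peaks was 52.4% for SOX2 and 47.3% for NANOG in the upper 50% by score, 52.2% and 46.4% with lists of equal length, 59.1% and 58.6% at a score of at least 50, and 44.0% and 40.8% at an FDR of at most 5%. In the upper 50% by fold it was 30.9% for SOX2, 19.5% for OCT4 and 31.8% for NANOG, and 27.9% for H9 SOX2. With OCT4 and NANOG of NT2/D1 exchanged it was 44.6% for OCT4 and 33.1% for NANOG.

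The 12p share of all NT2/D1 peaks was 5.23% for SOX2 and 4.32% for NANOG in the upper 50% by score, 5.21% and 4.19% with lists of equal length, 5.84% and 5.86% at a score of at least 50, 3.93% and 3.43% at the FDR limit, and 3.99% and 3.65% without the widest 1%. Without 2 Mb at the arm ends it was 3.83% for SOX2, 2.00% for OCT4 and 3.54% for NANOG, and 1.14% for H9 OCT4. In the upper 50% by fold it was 2.84%, 1.07% and 2.53%, and 1.35% for H9 SOX2. Exchanged libraries gave 3.87% for OCT4 and 2.23% for NANOG.

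The ratio of the NT2/D1 to the H9 share on 12p was 3.61 for SOX2 in the upper 50% by score, 3.43 with lists of equal length, and 4.06 at a score of at least 50, where it was 3.95 for NANOG. At the FDR limit it was 2.36 for NANOG. Exchanged libraries gave 3.04 for OCT4 and 1.55 for NANOG. In the upper 50% by fold it was 2.11 for SOX2 and 1.69 for NANOG, and it reversed to 0.922 for OCT4. On 12q the ratio for SOX2 was 1.32 in the upper 50% by score, 1.12 at a score of at least 50 and 1.83 by fold, and for NANOG it was 1.17 at a score of at least 50 and 1.49 by fold.

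The overlapped share of H9 12p peaks was 30.8% for OCT4 and 14.0% for NANOG with summits within 200 bp, and 16.3%, 26.8% and 10.9% for SOX2, OCT4 and NANOG at a reciprocal overlap of 50%. It was 33.6% for SOX2 and 23.1% for NANOG in the upper 50% by score, and 17.0% for OCT4 and 33.5% for NANOG with exchanged libraries. For NT2/D1 12p peaks it was 11.3% for OCT4 and 5.14% for NANOG with summits within 200 bp, and 2.96%, 9.84% and 4.003% at the reciprocal overlap. It was 16.5% for OCT4 in the upper 50% by score, 6.15% for SOX2 and 21.2% for OCT4 with lists of equal length, and 4.76% for OCT4 and 16.5% for NANOG with exchanged libraries.

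Regions on 12p with all 3 factors numbered 70 in H9 in the upper 50% by score, 51 in NT2/D1 with lists of equal length, and 17 in both lines without the widest 1%. Those of NT2/D1 without an H9 peak numbered 16 in the upper 50% by score, and 14 with summits within 200 bp or lists of equal length. At a score of at least 50 the median 12p peak of H9 SOX2, OCT4 and NANOG held 64, 55 and 64 tags, with folds of 7.16, 5.33 and 6.96 and lengths of 704, 552 and 848 bp. For NT2/D1 it held 29, 23 and 23 tags, with folds of 6.79, 9.53 and 7.51 and lengths of 763.5, 532.5 and 571 bp. Without the widest 1% the median length was 540.5 bp for NT2/D1 SOX2 and 407 bp for NANOG.

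Within 5 kb of a start lay 11.9%, 20.7% and 17.7% of H9 and 10.04%, 17.7% and 11.5% of NT2/D1 12p peaks for SOX2, OCT4 and NANOG. Within 1 kb lay 4.78% of H9 NANOG and 13.3% of NT2/D1 OCT4 peaks of the upper 50% by score. At 5 kb, 17, 40 and 41 of the listed genes had a peak in H9 and 59, 70 and 49 in NT2/D1, and 11 and 9 had a 3-factor region. For single lists, 59 of 72 counts moved by over 1.5 times at 5 kb, all downward, and 10 of 72 with lists of equal length.

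The FDR limit has another meaning in some lists, since FDR rose with score in NT2/D1 SOX2 and NANOG and fell with it in the others. In NT2/D1 SOX2 and NANOG the limit thus kept the peaks of lower score and was not a stricter setting. No analysis paired by replicate was possible because each factor and line had 1 library and the labels carry no replicate numbers. The lines were set side by side factor by factor, and the factors were not used as replicates in a test. The median 12p peak held 11 to 20 tags in the NT2/D1 lists and 35 to 48 in the H9 lists. What depth, band width and IgG library each add was not tested.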

Other observations

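The tag count of a peak divided by its fold and its length in kb gives a value that moves with the background the authors' fold refers to. This value was looked at after the data were seen, and no test was made on it. In NT2/D1 its median on 12p was 6.25 for SOX2, 4.58 for OCT4 and 5.66 for NANOG, and on 12q it was 4.67, 3.33 and 4.14. 12p had the highest median of 24 units (12p, 12q and the other chromosomes) in each of these lists. The other chromosomes ranged from 4.47 to 5.33 for SOX2, 2.51 to 3.99 for OCT4 and 3.93 to 4.75 for NANOG, and chromosome 21 was the highest of them in each list. The ratio of 12p to 12q was 1.34, 1.38 and 1.37 in NT2/D1 and 1.03, 1.03 and 0.999 in H9, where 12p ranked 7, 4 and 12 of 24. Copy number and IgG coverage of the arm were not analysed here.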
